A study of Homo sapiens with 12 samples.

Results

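The MYC, MAX and MXD network was followed through 8 genes, MYC, MAX, MXI1, MXD1, MXD3, MXD4, MNT and MGA, picked by symbol from the 25369 genes of the count and RPKM tables. All 8 had reads in every library and all 8 passed the filter on low counts in each line. The libraries were strand-specific poly(A)+ RNA-seq of RKO colon carcinoma cells, A549 lung adenocarcinoma cells and H460 lung large cell carcinoma cells. Each line was held in normoxia or exposed to 1% O2 for 24 h, with 2 replicates in each of the 6 groups and 12 libraries in all. The labels name no transgene, deletion or drug in any group. RKO and A549 cells grew in DMEM and H460 cells in RPMI, so line and medium cannot be told apart between H460 and the other lines. The study describes its RNA-seq replicates as independent biological samples.

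MYC is a transcription factor of the basic helix-loop-helix leucine zipper class that drives ribosome biogenesis, nucleotide synthesis and cell growth. It binds DNA at E-boxes as a heterodimer with MAX, and MAX is shared with the MXD proteins (MXD1, MXI1, MXD3 and MXD4), MNT and MGA, which occupy the same kind of site. The MXD proteins and MNT recruit SIN3 corepressors and oppose MYC, and MGA acts within a variant Polycomb complex. MXI1 is known as a target of hypoxia-inducible factors, the regulators that accumulate when oxygen is low and bind ACGTG or GCGTG motifs.

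RefSeq promoter windows, which ran from 250 bases before to 50 bases after a start site on GRCh38.p14, were held for 7 of the 8 genes, 12 windows in all, and each matched its chromosome of GRCh37 exactly once. Each window was searched on both strands for ACGTG and GCGTG, the core motifs bound by hypoxia-inducible factors, and for CACGTG, the E-box bound by MYC-MAX and MXD-MAX dimers. CACGTG contains ACGTG on both strands, so each E-box is counted under both motifs. Of the 12 windows 5 held ACGTG, as did 21.4% of all 35116 windows of the same length. GCGTG was in 6 of the 12 and in 36.5% of all, and CACGTG was in 2 of the 12 and in 7.26% of all. The windows below are from 4 repressor-side genes called higher in at least 1 line, MXI1, MXD4, MNT and MXD1, with matches in capitals. MXD3, which was also called higher in RKO, is not shown. As the windows shown were picked by change, no link of motif to change can be read from them. Among the windows not shown, MGA, called in no line, held GCGTG in windows 1, 2 and 3 and ACGTG in window 2. MXD3 held 2 GCGTG, window 1 of MAX held 1 ACGTG, and window 1 of MXI1 and window 2 of MAX held no match. Window 2 of MXI1 held GCGTG on the plus strand and ACGTG on the minus strand, window 3 held GCGTG on both strands, and MXD4 and MNT each held 1 CACGTG. The MXD1 window held none of the motifs, which says only that these letters are not in its 300 bases.
MXI1, window 2 (chr10:110209981-110210280, plus strand): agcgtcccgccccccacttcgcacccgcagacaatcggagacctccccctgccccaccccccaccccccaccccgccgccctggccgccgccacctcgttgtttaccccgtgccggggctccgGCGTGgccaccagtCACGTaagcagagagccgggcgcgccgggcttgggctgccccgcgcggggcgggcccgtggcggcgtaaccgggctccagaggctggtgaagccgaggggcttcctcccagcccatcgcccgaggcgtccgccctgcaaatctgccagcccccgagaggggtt
MXI1, window 3 (chr10:110225746-110226045, plus strand): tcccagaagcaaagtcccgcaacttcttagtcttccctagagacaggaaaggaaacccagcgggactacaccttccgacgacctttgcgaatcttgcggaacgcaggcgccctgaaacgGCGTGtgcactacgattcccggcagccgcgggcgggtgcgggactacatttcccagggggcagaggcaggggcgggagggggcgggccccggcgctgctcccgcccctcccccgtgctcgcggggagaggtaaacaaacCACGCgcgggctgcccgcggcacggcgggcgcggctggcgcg
MXD4 (chr4:2262060-2262359, minus strand): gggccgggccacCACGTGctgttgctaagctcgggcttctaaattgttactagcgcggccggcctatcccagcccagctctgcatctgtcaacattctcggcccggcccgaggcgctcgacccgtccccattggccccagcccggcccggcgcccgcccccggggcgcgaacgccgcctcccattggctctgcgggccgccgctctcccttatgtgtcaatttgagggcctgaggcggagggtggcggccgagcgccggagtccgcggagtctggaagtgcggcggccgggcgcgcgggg
MNT (chr17:2401011-2401310, minus strand): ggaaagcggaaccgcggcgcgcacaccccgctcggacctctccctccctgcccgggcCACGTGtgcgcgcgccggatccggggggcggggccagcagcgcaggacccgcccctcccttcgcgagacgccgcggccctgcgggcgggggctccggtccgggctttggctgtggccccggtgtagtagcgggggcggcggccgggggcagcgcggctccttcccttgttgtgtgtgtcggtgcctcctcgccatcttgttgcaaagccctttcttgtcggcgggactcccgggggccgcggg
MXD1 (chr2:69914859-69915158, plus strand): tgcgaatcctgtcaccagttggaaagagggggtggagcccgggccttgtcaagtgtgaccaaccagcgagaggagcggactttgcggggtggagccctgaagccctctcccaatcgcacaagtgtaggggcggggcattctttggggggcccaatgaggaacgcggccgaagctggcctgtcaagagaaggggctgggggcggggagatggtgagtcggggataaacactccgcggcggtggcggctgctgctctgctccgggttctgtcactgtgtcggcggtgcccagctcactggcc

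Gene-level counts add reads from all start sites, so the 3 MXI1 start sites could not be separated. On GRCh37, the build of the deposited tables, MYC lies on chromosome 8 (128748315-128753680, plus strand), MAX on chromosome 14 (65472819-65569413, minus strand) and MXI1 on chromosome 10 (111967363-112047123, plus strand). MXD1 lies on chromosome 2 (70142173-70170076, plus strand), MXD3 on chromosome 5 (176732501-176739292, minus strand) and MXD4 on chromosome 4 (2249160-2263739, minus strand). MNT lies on chromosome 17 (2287354-2304258, minus strand) and MGA on chromosome 15 (41952610-42062141, plus strand). The values count exon reads over each whole gene. MAX overlaps FNTB and MXD3 overlaps PRELID1 on the opposite strand, and the counting used strand.

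Summed counts ran from 27350424 to 41757584 per library. CA9, a carbonic anhydrase gene induced by hypoxia-inducible factors and used here as a check of the treatment, was at 0.679 to 3.69 scaled RPKM in the normoxia libraries and at 34.7 to 167 in the hypoxia libraries. Scaled RPKM is the deposited RPKM (reads per unit of gene length and of counted reads) divided by the TMM factor of the library. Labelled tissues were checked against 19 marker genes. In RKO, CDX2 was at 3.95 to 6.61 scaled RPKM, but the other colon markers CDX1 and VIL1 were at 0 in every library. Of the lung markers in A549 and H460, SFTPB and SFTPC stayed below 0.1 scaled RPKM, NKX2-1 reached at most 1.46, and NAPSA was at 2.34 to 3.51 in A549 and at most 0.525 in H460. Of the epithelial markers, A549 had all 4, with KRT8 and KRT18 at 611 or more, CDH1 at 13.6 to 21.8 and EPCAM at 7.72 to 11.5. H460 had KRT8 and KRT18 at 238 or more, but EPCAM reached only 0.29 and CDH1 0.13. RKO had KRT18 at 57.8 to 119, KRT8 at 3.57 to 5.71 and EPCAM at 2.64 to 3.57, and CDH1 reached only 0.0221. Of the 8 leukocyte, fibroblast and endothelial markers, PTPRC, CD3E, DCN and PECAM1 had at most 3 reads in any library and VWF at most 21. COL3A1 had 195 to 497 reads in H460 and at most 2 elsewhere. CD14 was at 3.09 to 5.54 scaled RPKM in A549 and at 3.04 to 7.19 in H460, where it was lower in both hypoxia libraries, and at most 0.059 in RKO. COL1A1 was at 7.93 to 72.5 in A549, higher in both hypoxia than in both normoxia libraries, at 1.83 to 3.15 in H460 and at most 0.337 in RKO. Their part in the results was not tested.

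Corrected for gene length, MYC had the highest level of the 8 genes in every library, and in normoxia its level differed between all 3 lines. In RKO the normoxia libraries read 222 and 193 scaled RPKM and the hypoxia libraries 116 and 120. Both hypoxia libraries lay below both normoxia libraries, and MYC fell by 0.87 on the log2 scale (SE 0.16, n = 2 against 2, edgeR adjusted p = 0.00193), which is 1.83-fold lower. In A549 the normoxia libraries read 44.6 and 68.0 scaled RPKM and the hypoxia libraries 54.8 and 49.6. The hypoxia values lay between the normoxia values, and the log2 difference of -0.12 (SE 0.22, edgeR adjusted p = 0.819, 95% interval -0.61 to 0.37) did not pass the test. In H460 the normoxia libraries read 120 and 109 scaled RPKM and the hypoxia libraries 92.8 and 86.9. The groups did not overlap and the log2 difference of -0.36 (SE 0.09) had an edgeR adjusted p of 0.0035, but its size, 1.29-fold lower, was under the fold change of 1.5 that a call required. In bulk libraries, fewer cells with a transcript and less transcript per cell cannot be told apart. The H460 difference depended on the scaling. By library size alone it was -0.72 and passed both thresholds, while the median shift over all genes was -0.352. With limma on log2 RPKM, which is also scaled by library size, the H460 difference of MYC was -0.71 and passed both thresholds too.

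**Figure D1:**
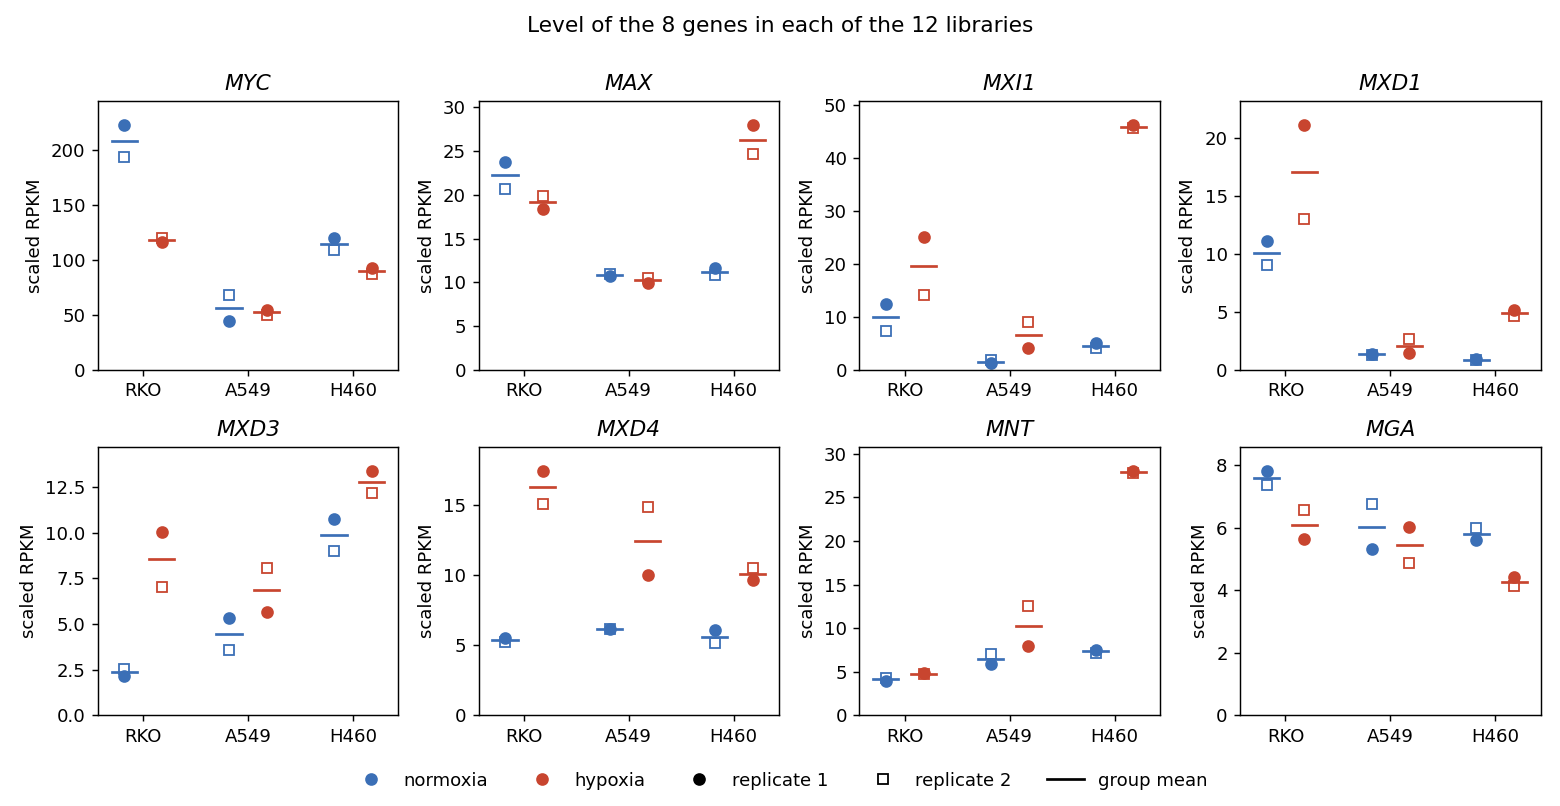
Scaled RPKM (y axis, from 0, a separate scale per gene) of the 8 genes in the 12 libraries, by line on the x axis, with filled circles for replicate 1, open squares for replicate 2 and a bar at the group mean. MYC read 193 and 222 in normoxic RKO libraries against 116 and 120 in hypoxia, and MXI1 read 4.14 and 4.99 in normoxic H460 libraries against 45.6 and 46.2 in hypoxia.

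Within each line, calls required a fold change over 1.5 together with an adjusted p under 0.1. By this rule 33.9% of the 12817 genes tested in RKO passed, against 2.67% of 14251 genes in A549 and, in H460, 51.9% of 14080. Split by direction, calls of RKO comprised 18.8% of tested genes upward with 15.1% downward, those of A549 2.22% upward with 0.456% downward, and those of H460 24.6% upward with 27.3% downward. Higher genes made up 47.5% of the H460 calls, or 26.5% with library size scaling. Against that background, 5 of the 8 members were called in RKO (4 higher, 1 lower), 2 in A549 (both higher) and 5 in H460 (all higher). The median log2 fold change of the 8 genes across RKO, A549 and H460 was 0.42, 0.60 and 1.02, beside 0.01, -0.01 and -0.04 over all genes tested. In these fits MYC in RKO was the only member called lower in any line. At an unadjusted edgeR p under 0.05, 0 members were lower in A549 and 2, MYC and MGA, in H460, and DESeq2 called 0 lower in either.

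**Figure D2:**
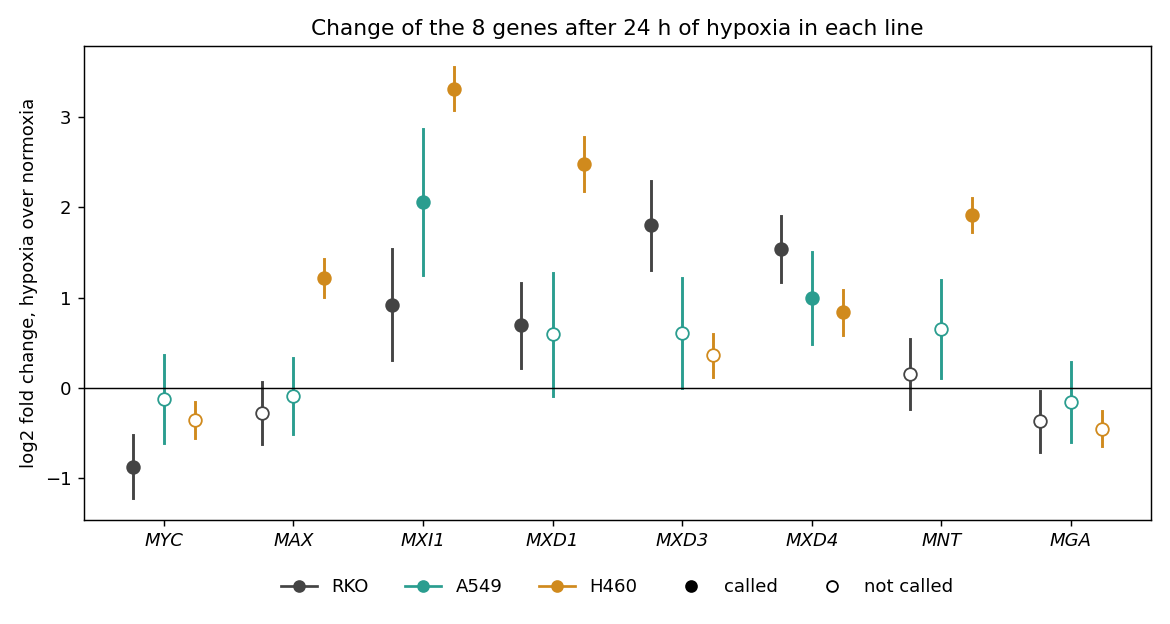
Log2 fold change of hypoxia over normoxia (y axis) for the 8 genes (x axis) in RKO, A549 and H460, from the edgeR fit of each line, with 95% intervals as vertical lines, filled when called. MXI1 and MXD4 are filled in all 3 lines, while MYC is filled only in RKO.

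MAX, the dimer partner shared by the other members, changed in H460 and not detectably in the other lines. In H460 it rose from 11.6 and 10.8 scaled RPKM in normoxia to 27.9 and 24.7 in hypoxia, a log2 fold change of 1.21 (SE 0.10, edgeR adjusted p = 4.45e-07). In RKO it read 23.8 and 20.7 in normoxia and 18.4 and 19.9 in hypoxia, a log2 difference of -0.28 (adjusted p = 0.185, 95% interval -0.62 to 0.07). In A549 all 4 libraries read between 9.96 and 11.0 scaled RPKM, with a log2 difference of -0.10 (95% interval -0.52 to 0.33). The hypoxic H460 libraries thus had the highest scaled MAX levels of the 12, but this ranking depended on the scaling. In deposited RPKM they read 21.9 and 20.5, below the normoxic RKO libraries at 24.9 and 22.3 and RKO hypoxia replicate 2 at 22.3.

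MXI1, an MXD-family antagonist of MYC, was called higher in all 3 lines. In H460 it read 4.99 and 4.14 scaled RPKM in normoxia and 46.2 and 45.6 in hypoxia, which is 9.97-fold higher (log2 3.32, SE 0.11, edgeR adjusted p = 9.93e-10). Only 131 of the 14080 genes tested in H460 had a higher fold change. In A549 it read 1.34 and 1.77 in normoxia and 4.12 and 9.03 in hypoxia, 4.18-fold higher (log2 2.06, SE 0.36, edgeR adjusted p = 0.0297), and 96 of 14251 genes had a higher fold change. In RKO it read 12.4 and 7.41 in normoxia and 25.1 and 14.2 in hypoxia, 1.90-fold higher (log2 0.92, SE 0.28, edgeR adjusted p = 0.0238). Counted from the highest, its fold change ranked 1529 among the 12817 genes tested in RKO. The hypoxia libraries lay above the normoxia libraries in each line. However, the RKO hypoxia replicates lay farther apart than the means of the RKO groups did. With a pseudocount of 0.1 and no filter, limma on log2 RPKM did not call the RKO difference (0.99, limma adjusted p = 0.12). Without RKO hypoxia replicate 1 the RKO difference was 0.51 and was not called (adjusted p = 0.134), and limma on log2 RPKM did not call the A549 difference with a pseudocount of 0.1 (1.82, adjusted p = 0.102, or 0.366 with no filter) or 1 (1.42, adjusted p = 0.16).

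MXD1, the founding member of the family and one linked to differentiation, was called higher in H460 and RKO. In H460 it read 0.916 and 0.825 scaled RPKM in normoxia and 5.19 and 4.63 in hypoxia, 5.58-fold higher (log2 2.48, SE 0.13, edgeR adjusted p = 2.12e-08). In RKO it read 11.1 and 9.02 in normoxia and 21.1 and 12.97 in hypoxia, 1.61-fold higher (log2 0.69, SE 0.22, edgeR adjusted p = 0.0270). RKO hypoxia replicate 1 had the highest MXD1 level of the 12 libraries, and without it the difference was 0.35 and not called (adjusted p = 0.174). Without RKO normoxia replicate 2 it was 0.54, under the fold change threshold. With all RKO libraries, limma on log2 RPKM with a pseudocount of 0.1 and no filter did not call it (0.74, limma adjusted p = 0.103). In A549 MXD1 read 1.40 and 1.30 in normoxia and 1.48 and 2.66 in hypoxia, and the log2 difference of 0.59 did not pass (SE 0.30, adjusted p = 0.365).

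MXD3, which is expressed in proliferating cells, was called higher in RKO. The RKO libraries went from 2.18 and 2.52 scaled RPKM to 10.0 and 7.05, 3.48-fold higher (log2 1.80, SE 0.22, edgeR adjusted p = 0.00031). In H460 it read 10.7 and 9.01 in normoxia and 13.4 and 12.2 in hypoxia, so that the groups did not overlap but the log2 difference of 0.36 (adjusted p = 0.0107) was under the fold change threshold, and it was 0.01 with library size scaling. In A549 it read 5.34 and 3.59 in normoxia and 5.68 and 8.07 in hypoxia (log2 0.60, SE 0.27, adjusted p = 0.304), a difference that was called with a replicate block, which pairs libraries of the same number (0.61, adjusted p = 0.0460). RKO had the lowest MXD3 levels in normoxia, and no hypoxic RKO library passed the higher of the normoxic H460 libraries.

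MXD4, a family member found in many differentiated tissues, was called higher in all 3 lines from nearly the same starting level. The 6 normoxia libraries read between 5.13 and 6.18 scaled RPKM. Hypoxic RKO libraries read 17.4 and 15.1, hypoxic A549 libraries 10.0 and 14.9, and hypoxic H460 libraries 9.62 and 10.5. RKO rose 2.90-fold (log2 1.54, SE 0.17, edgeR adjusted p = 0.000166), A549 2.00-fold (log2 1.00, SE 0.23, adjusted p = 0.0805) and H460 1.78-fold (log2 0.84, SE 0.11, adjusted p = 3.60e-05). No hypoxia library of any line overlapped a normoxia library. The A549 call was lost when A549 normoxia replicate 1 (adjusted p = 0.111), normoxia replicate 2 (0.115) or hypoxia replicate 2 (0.459) was left out, with library size scaling (0.14) and with limma (0.168 to 0.374). The H460 value fell to 0.49, under the fold change threshold, with library size scaling, and to 0.42 to 0.48 with limma.

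MNT, a widely expressed antagonist that is regulated less by growth state than the MXD genes, was called higher in H460. There it read 7.45 and 7.20 scaled RPKM in normoxia and 28.0 and 27.8 in hypoxia, 3.77-fold higher (log2 1.91, SE 0.09, edgeR adjusted p = 6.02e-09). In RKO the 4 libraries read between 3.93 and 4.82, with a log2 difference of 0.15 (adjusted p = 0.527, 95% interval -0.24 to 0.54). In A549 it read 5.93 and 7.04 in normoxia and 7.95 and 12.6 in hypoxia, with a log2 difference of 0.65 (SE 0.24, adjusted p = 0.236). The A549 difference was called in the joint fit of all 12 libraries (0.66, adjusted p = 0.0485) and with the replicate block (0.62, adjusted p = 0.00855).

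MGA, the largest member, which pairs with MAX and also carries a T-box domain, was called in no line. Its log2 differences were -0.37 in RKO (7.82 and 7.37 scaled RPKM in normoxia, 5.64 and 6.57 in hypoxia, edgeR adjusted p = 0.0772) and -0.45 in H460 (5.60 and 5.99 against 4.43 and 4.13, adjusted p = 0.0007). Both were under the fold change threshold, although the groups did not overlap. In A549 the groups overlapped (5.31 and 6.77 in normoxia, 6.02 and 4.88 in hypoxia, log2 -0.16, adjusted p = 0.727). By library size alone the H460 difference was -0.81 and passed both thresholds. It did so too with limma on log2 RPKM (-0.66 to -0.79), which is also scaled by library size.

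The A549 replicates were less alike than those of H460, and all 5 MXD and MNT genes were higher in A549 hypoxia replicate 2 than in replicate 1. CA9 read 125 in replicate 1 and 145 scaled RPKM in replicate 2. Without hypoxia replicate 1, the A549 differences were 0.95 for MXD1, 0.82 for MXD3 and 0.93 for MNT. Over all omissions of 1 A549 library, MXD1 ran from 0.12 to 0.95, MXD3 from 0.34 to 0.92 and MNT from 0.29 to 0.93. MXD4 ran from 0.70 to 1.24 and was lowest without hypoxia replicate 2. With the replicate block, where MXD3 and MNT joined MXI1 and MXD4, 4 members were called higher in A549 beside 8.34% of all genes. The blocked fit left 1 residual degree of freedom per gene, so its p values rest largely on the spread shared over genes.

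Whether the response to hypoxia differed between lines was tested by an interaction contrast in a joint fit of the 12 libraries, called by the adjusted p alone. For RKO minus A549, 2 of the 8 members were called against 14.6% of all 15595 genes, for RKO minus H460 6 of 8 against 37.6%, and for A549 minus H460 4 of 8 against 36% of all genes. These comparisons share libraries with each other and with the fits of each line. Between RKO and H460, the H460 response was larger for MAX (log2 difference of responses -1.45, adjusted p = 0.000152), MXI1 (-2.34, adjusted p = 0.00246), MXD1 (-1.74, adjusted p = 0.00321) and MNT (-1.72, adjusted p = 0.000373). The RKO response was larger for MXD3 (1.49, adjusted p = 0.0043) and MXD4 (0.75, adjusted p = 0.0395). The MXD4 difference was not called without RKO hypoxia replicate 1 (0.104), H460 normoxia replicate 1 (0.145) or H460 hypoxia replicate 1 (0.141). MYC itself did not pass in this pair (-0.47, adjusted p = 0.173, 95% interval -0.99 to 0.06).

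Between A549 and H460, the H460 response was larger for MAX (-1.31, edgeR adjusted p = 0.000403), MXD1 (-1.89, adjusted p = 0.00267), MNT (-1.27, adjusted p = 0.00302) and MXI1 (-1.25, adjusted p = 0.0682). The MXI1 difference was not called with DESeq2 (adjusted p = 0.137) or library size scaling (0.119), nor when A549 normoxia replicate 2, A549 hypoxia replicate 1 or any 1 H460 library was left out. Between RKO and A549, MYC differed by -0.71 (adjusted p = 0.0912) and MXD3 by 1.24 (adjusted p = 0.0359). The MYC call was lost when any 1 RKO library, A549 normoxia replicate 1 or A549 hypoxia replicate 1 was left out (adjusted p from 0.105 to 0.256), and with library size scaling (-0.57, adjusted p = 0.165), where MXD4 was called (0.72, adjusted p = 0.0843). MXI1 was not called in this pair by the main fit (-1.09, SE 0.48, edgeR adjusted p = 0.173). With no filter on low counts MXI1 was called at nearly the same difference (-1.08, adjusted p = 0.000682). The MXD3 call was lost without RKO normoxia replicate 1 (0.133), RKO hypoxia replicate 1 (0.126) or A549 hypoxia replicate 1 (0.105). The replicate block added MXI1 (-1.02, adjusted p = 0.0127) and MXD4 (0.61, adjusted p = 0.0810) to this pair, giving 4 called members. No share of all genes called with this block is given here for the pair. In the fit of A549 alone, the block raised the share of all genes called from 2.67% to 13.4%. MGA was called in no pair by the main fit, but with library size scaling it was called for A549 minus H460 (0.555, adjusted p = 0.0932).

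Levels in normoxia were compared between lines in the same joint fit, where a call again needed a fold change over 1.5. For RKO against A549, 6 of 8 members were called and 60.2% of all genes, for RKO against H460 6 of 8 and 61.9%, and for A549 against H460 4 of 8 and 52.1%. MYC was highest in RKO (mean 208 ± 20.4 scaled RPKM, SD, n = 2), then H460 (114 ± 7.86) and A549 (56.3 ± 16.6), and all neighbours differed (log2 0.86 with edgeR adjusted p = 0.000507 for RKO over H460, and 1.02 lower in A549 than in H460 with adjusted p = 0.000176). MAX was higher in RKO (22.2 ± 2.21) than in H460 (11.2 ± 0.549) and A549 (10.8 ± 0.191), which did not differ beyond their spread. MXI1 followed the order RKO (9.92 ± 3.55), H460 (4.56 ± 0.595) and A549 (1.55 ± 0.309), each step called, but RKO over H460 was not called without RKO normoxia replicate 1 (log2 0.69, adjusted p = 0.141).

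MXD1 in RKO (10.1 ± 1.49 scaled RPKM) was 7.45-fold higher than in A549 (1.35 ± 0.0723, edgeR adjusted p = 2.98e-07) and 11.6-fold higher than in H460 (0.870 ± 0.0642, adjusted p = 5.48e-08). The step from A549 to H460 was called at a log2 difference of 0.64 (edgeR adjusted p = 0.0599) and was lost without A549 normoxia replicate 1 (adjusted p = 0.152) or either H460 normoxia library (0.122 and 0.221). MXD3 had the reverse order, H460 (9.87 ± 1.22), A549 (4.47 ± 1.24) and RKO (2.35 ± 0.241), with each step called. MNT was lower in RKO (4.12 ± 0.272) than in A549 (6.49 ± 0.781) and H460 (7.33 ± 0.176), and the A549 and H460 levels did not differ beyond their spread. Without A549 normoxia replicate 2 the RKO and A549 levels of MNT differed by -0.53, under the fold change threshold. MXD4 and MGA were called in no pair of lines.

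Within a line, the length-corrected scale also gives the order of the genes. In normoxic RKO libraries MYC and MAX led, and MXD1, MXI1 and MGA overlapped with neighbours in that order before MXD4, MNT and MXD3, which were separate. In normoxic A549 libraries MNT, MXD4 and MGA overlapped below MAX, followed by MXD3, which overlapped MGA, and MXI1 and MXD1 were lowest and overlapped. In normoxic H460 libraries the order was MYC, MAX, MXD3, MNT, MGA, MXD4, MXI1 and MXD1, with overlap only between MGA and MXD4. In hypoxic H460 libraries MXI1 was second to MYC, and MNT and MAX overlapped in the next place. Among the genes tested in its line, normoxic MYC was above 98.3% of genes in RKO, with 91.8% for A549 and 96.2% for H460, whereas MXD1 was above 51.6%, 18.1% and 13.4%.

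Ratios of RPKM within a library do not depend on scaling between libraries, and they were read as values without a test. MYC exceeded MXI1 by 17.9 and 26.1 times in the normoxic RKO libraries and by 4.62 and 8.48 times in hypoxia. In A549 the ratio was 33.4 and 38.4 in normoxia and 13.3 and 5.49 in hypoxia. In H460 it went from 24.0 and 26.2 to 2.01 and 1.90. The normoxia and hypoxia ratios did not overlap in any line.

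The summed RPKM of MXI1, MXD1, MXD3, MXD4, MNT and MGA, divided by that of MYC, was 0.194 and 0.185 in normoxic RKO libraries and 0.724 and 0.504 in hypoxic ones. In H460 it was 0.298 and 0.297 in normoxia and 1.15 and 1.21 in hypoxia, so that the sum passed MYC. In A549 it was 0.571 and 0.392 in normoxia and 0.643 and 1.05 in hypoxia. These are transcript levels, and protein levels were not measured here. MXI1 made up 14.0% and 12.8% of that sum in normoxic H460 libraries and 43.3% and 43.5% in hypoxic ones, while MGA went from 15.7% and 18.6% to 4.15% and 3.94%. In RKO the share of MXD4 went from 12.8% and 14.6% to 20.7% and 24.9%, and that of MXI1 was 28.9% and 20.7% in normoxia and 29.9% and 23.4% in hypoxia.

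**Figure D3:**
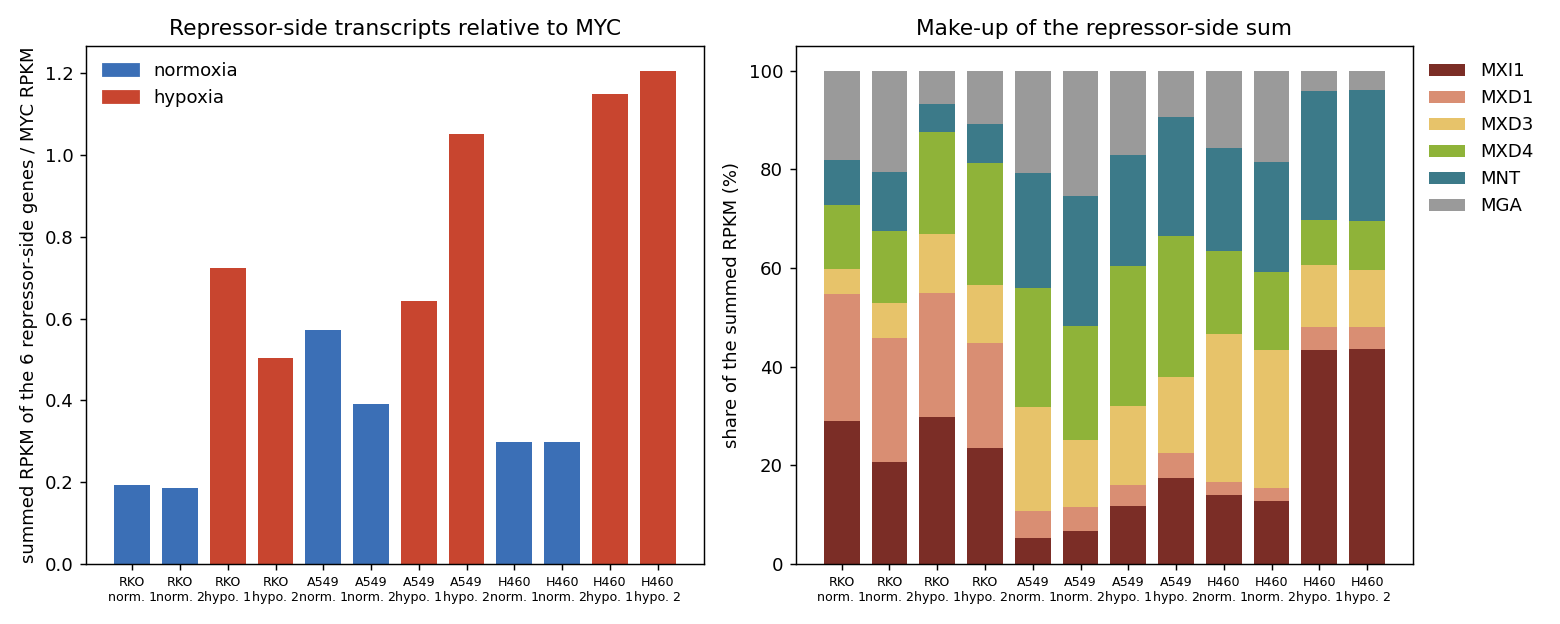
Left, summed RPKM of MXI1, MXD1, MXD3, MXD4, MNT and MGA divided by that of MYC in each of the 12 libraries (bars from 0, blue normoxia, red hypoxia), and right, the percent of that sum taken by each gene in the same libraries. The ratio is above 1 in 3 hypoxic libraries, 1 of A549 and both of H460, and the MXI1 share is largest in hypoxic H460 libraries at 43.3% and 43.5%.

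The genes that MYC is known to activate were described with a list of 28, mostly of ribosome biogenesis and nucleotide or polyamine synthesis. The list was chosen from general knowledge, with earlier results of these data known. In RKO 21 of 27 tested were called lower and 1 higher (median log2 fold change -1.11), in H460 17 of 27 were lower and 4 higher (median -1.24), and in A549 0 of 26 were lower and 1 was higher (median -0.55). Over all genes, the shares called lower were 15.1% in RKO, 27.3% in H460 and 0.456% in A549. The nucleolar genes NOP16 (-2.06), BOP1 (-1.83) and MRTO4 (-1.67) fell most in RKO, each with an edgeR adjusted p of at most 0.00033. In H460 CDC25A, a cell cycle phosphatase, fell by 3.46 (adjusted p = 3.81e-09), TERT, the catalytic subunit of telomerase, fell by 2.83 (adjusted p = 4.89e-07) and NOP56, a nucleolar protein, fell by 2.78 (adjusted p = 2.12e-09). LDHA, a glycolytic enzyme that is also a known target of hypoxia-inducible factors, was higher in all 3 lines (RKO 0.63, A549 1.38, H460 1.18).

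In A549 the edgeR log2 difference of the MYC-activated genes was below 0 for 24 of 26, although 0 were called lower. At an unadjusted edgeR p under 0.05 there were 12 lower. With DESeq2 5 were called lower (1.85% of all genes), with the replicate block 13 (5.07%), and without A549 hypoxia replicate 1 17 (5.34%). In H460 the 3 with the highest called differences were CCND2 (1.44, at 0.0542 to 0.151 scaled RPKM), LDHA and SHMT2 (1.12), a mitochondrial serine enzyme. PPAN, a ribosome biogenesis factor, moved in opposite directions, lower in RKO (-1.06, adjusted p = 0.00792) and higher in H460 (0.67, adjusted p = 0.00166).

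Of 8 genes that MYC is known to repress, 4 were called higher and 1 lower of 6 tested in RKO, 1 higher of 7 in A549, and 3 higher and 3 lower of 7 in H460. Over all genes, 33.9%, 2.67% and 51.9% were called in the same order of lines. NDRG1, which is also induced by hypoxia, was higher in all 3 lines (log2 4.28, 4.73 and 6.08 in the order RKO, A549, H460, each with an edgeR adjusted p under 0.005). The cyclin-dependent kinase inhibitor genes CDKN2B in RKO (1.61) and CDKN1A (1.90) and CDKN1B (1.64) in H460 were also higher. GADD45A, a stress response gene, rose in RKO (1.00, adjusted p = 0.00399) and fell by 0.83 in H460 (adjusted p = 4.14e-05). In A549 its difference of -0.89 was not called (adjusted p = 0.260), but it was with the replicate block (-0.90, adjusted p = 0.00768) and without A549 normoxia replicate 1 or hypoxia replicate 1. THBS1, a secreted matrix glycoprotein, fell by 1.57 in H460 (adjusted p = 0.000207). CEBPA, a differentiation factor, fell in RKO (-0.61, adjusted p = 0.0494) and in H460 (-2.32, adjusted p = 3.73e-06). The CEBPA call in RKO was lost without RKO normoxia replicate 1, normoxia replicate 2 or hypoxia replicate 1.

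Among 18 partner proteins of the network, 17 were tested in each line. In RKO 4 were lower, RUVBL1 (-1.49), HDAC2 (-0.91), WDR5 (-0.83) and RUVBL2 (137 to 71.7 scaled RPKM), which are chromatin cofactors, and 2 were higher, MLXIPL (2.54) and ZBTB17 (0.60). In H460 2 were lower, RUVBL1 (-0.62) and MLXIPL (-0.67). The 6 of 17 called in RKO stand beside 33.9% of all genes and the 2 of 17 in H460 beside 51.9%. In A549 0 were called in the edgeR fit of the line or by DESeq2, with 1 lower at an unadjusted p under 0.05. MLXIPL was called lower there with the replicate block (-0.82, adjusted p = 0.00329), in the joint fit (-0.78, adjusted p = 0.0623) and without A549 hypoxia replicate 2 (-1.17, adjusted p = 0.0529). MLXIPL, a glucose-sensing factor that pairs with MLX, therefore rose in RKO (0.603 to 3.66 scaled RPKM) and fell in H460 (5.35 to 3.41). MYCN, a MYC paralog, was untested, with at most 0.0133 scaled RPKM as a group mean. The RKO count of higher genes was 1 without RKO normoxia replicate 1 or hypoxia replicate 1 and 4 without hypoxia replicate 2. The H460 count of lower genes was 4 without H460 normoxia replicate 1 or hypoxia replicate 2, and 1 without hypoxia replicate 1.

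Of 9 genes that control turnover of the MYC protein, 3 were called lower in RKO (STUB1 -0.98, SKP2 -0.82 and AURKA -0.59), 0 in A549 by edgeR, DESeq2 or an unadjusted p under 0.05, and in H460 3 were lower and 3 higher. The share of all genes called was 33.9% for RKO, 2.67% for A549 and 51.9% for H460. Without A549 hypoxia replicate 1, CIP2A was called lower in A549 (KIAA1524 in the tables, -0.79, adjusted p = 0.0554). The H460 genes that fell were CIP2A (-1.34), SKP2 (-0.87) and STUB1 (-0.73). Those that rose were USP28 (1.22), FBXW7 (0.69), whose product marks MYC for degradation, and GSK3B (0.59). Without H460 normoxia replicate 1 the count of higher genes in H460 was 1.

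**Figure D4:**
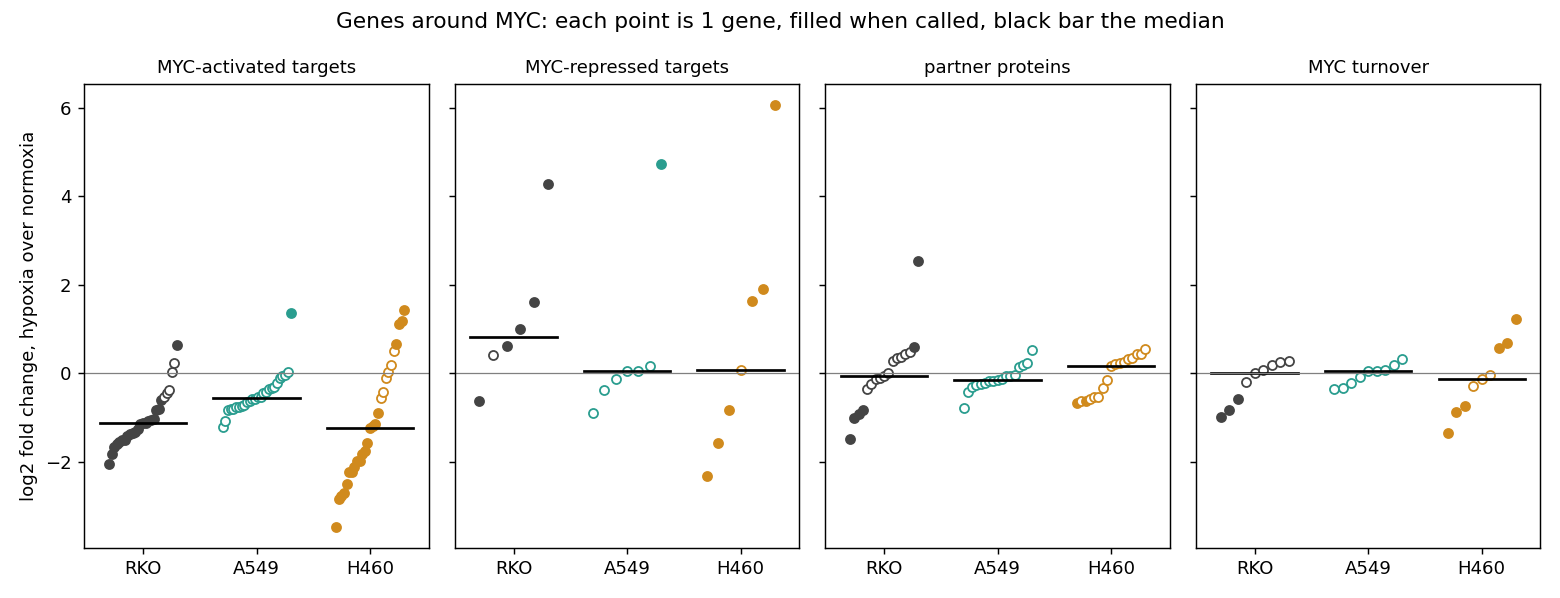
Log2 fold change of hypoxia over normoxia (y axis) of the tested genes of 4 lists in each line (x axis), with 1 point per gene, filled when called, and a black bar at the median. The medians of the MYC-activated genes are -1.11, -0.55 and -1.24 in the order RKO, A549, H460, and NDRG1 is the highest point at 4.28, 4.73 and 6.08.

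Across the 12 libraries, log2 levels of 11139 genes were compared with those of MYC and MXI1. The closest to MYC by Pearson correlation were SLC9B2 (0.978), AKR1A1 (0.977), SNRNP200 (0.970), RNF138 (0.965) and ING3 (0.962). The closest to MXI1 were TPD52 (0.983), TBC1D8B (0.972), RBPJ (0.972), PDK3 (0.969) and TPT1 (0.968). Among the members, MXI1 was closest to MAX (0.828), and MNT and MGA had the lowest correlation (-0.875). The 12 points fall into 6 groups of line and oxygen, so these values describe the patterns only.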

How the data were processed

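Poly(A)+ RNA was measured in 12 libraries. According to the study's methods and the submitters' processing notes, the authors aligned reads with TopHat2 2.0.13 to GRCh37/hg19, dropped poorly mapped reads, marked duplicates with Picard 1.129 and counted exon reads by strand with HTSeq 0.6.1. The deposited counts of 25369 genes entered all tests. The deposited RPKM, which equals the count per unit of gene length and of summed counts, times a constant, was divided by TMM factors for display. Of the per-sample columns, 0 were left unused.

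Each line was fitted on its 4 libraries by the quasi-likelihood F test of edgeR 4.0.16 (R 4.3.3) with TMM factors (genes over 0.5 CPM in at least 2 libraries). Interactions and normoxia contrasts came from 1 fit of 12 libraries. Adjusted p values are edgeR values (Benjamini-Hochberg over all genes) unless another tool is named. The steps were also run on simulated data, and the outcome is not given here. Its replicates were drawn independently, so deviations shared by same-numbered libraries were not tried. Alternatives were DESeq2 1.42.0, RLE factors, library size only, no filter, a replicate block, a joint fit and other fold thresholds. Further alternatives left out each library or used limma 3.58.1 on log2(RPKM + 0.1) and log2(RPKM + 1). The limma fits took the deposited RPKM, which is scaled by library size and not by TMM factors.

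The members and lists were chosen with earlier results of these data known. Genes named were the members, the called genes of each list with the 3 highest and 3 lowest fold changes per line or opposite calls, the 5 genes most correlated with MYC and with MXI1 (mean of 100 counts or more), and CA9. CIP2A is listed under its older symbol KIAA1524. MYCN, at no more than a few reads, and the marker and overlapping genes were named outside this rule. The labels do not say what a replicate number shares, but deviations of same-numbered libraries from their group means correlated at 0.34 in RKO, 0.344 in A549 and 0.113 in H460, so the blocked value is given beside a result where it changes a call. Replicates differed by more than counting noise (chi-square per degree of freedom 10.3 to 79.2).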

Additional observations from a re-analysis of the deposited data

Results flagged for a closer look

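The response of 8 genes to hypoxia was tested for a difference between lines, and 12 differences passed an adjusted p of 0.1 in the joint edgeR fit. Between RKO and A549, MYC differed by -0.71 on the log2 scale and MXD3 by 1.24. Between RKO and H460, the differences were -1.45 for MAX, -2.34 for MXI1, -1.74 for MXD1, 1.49 for MXD3, 0.75 for MXD4 and -1.72 for MNT. Between A549 and H460 they were -1.31 for MAX, -1.25 for MXI1, -1.89 for MXD1 and -1.27 for MNT. A negative value means a lower log2 fold change in the line named first. Line and medium cannot be told apart between H460 and the other lines.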

How the results depend on the processing

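With 2 libraries a group, modest changes can be missed, and the A549 counts moved most. No member changed direction except where a library was left out. DESeq2 and RLE factors left the members called per line as they were. Scaling by library size alone moved the median of all genes by 0.0834 (RKO), -0.0913 (A549) and -0.352 (H460). The cause of the changes below was not tested.

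In RKO, the MYC-repressed genes called lower, 1 as reported, came to 0 with library size scaling, with limma on log2(RPKM + 0.1) or log2(RPKM + 1), with limma and no filter, with the joint fit, and at a fold change over 2. With limma and no filter 2 members were called higher. At a fold change over 2, 2 members were higher and 0 lower, 1 partner protein was higher and 1 lower, 0 turnover genes were lower, and 0 MYC-activated genes were higher. With no minimum fold change 2 members were lower.

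In A549, 1 member was called higher with library size scaling and at a fold change over 2, and 0 with limma at either pseudocount or without the filter, where 0 MYC-activated and 0 MYC-repressed genes were higher too. MYC-activated genes called lower came to 5 with no filter on low counts, 5 with DESeq2 and 6 with the joint fit, which also called MNT higher and 1 partner protein lower. With the replicate block 4 members were higher, and 13 MYC-activated genes, 1 partner protein and 1 MYC-repressed gene were lower. The replicate block also gave 4 called members for RKO minus A549, with no share of all genes beside them, and it changed no other call of a member.

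In H460, 2 members were called lower with library size scaling, with limma at either pseudocount or without the filter, and with no minimum fold change. Library size scaling called 7833 of the 14080 genes tested in H460, of which 26.5% were higher. The main fit called 7304, of which 47.5% were higher. No share of all genes is given here for limma or for no minimum fold change, so those counts have no background beside them. Partner proteins called lower came to 7 with library size scaling, 6 with limma in each form and 6 with no minimum fold change (then 8 were higher), and 0 at a fold change over 2. Turnover genes called higher came to 1 with library size scaling, with limma in each form and at a fold change over 2, where 1 was lower. MYC-activated genes called higher came to 2 with limma in each form.

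Leaving out each library in turn gave these lowest and highest values. The lone library of a group was assumed to vary like the other group. In A549 the share of all genes called also moved with the library left out, so its ranges do not describe the members and lists alone. In RKO, members called higher ran from 2 to 4, partner proteins higher from 1 to 4, MYC-activated genes higher from 0 to 1 and MYC-repressed genes lower from 0 to 1. In A549, members called higher ran from 1 to 5, MYC-activated genes lower from 0 to 17, and partner proteins, turnover genes and MYC-repressed genes lower from 0 to 1 each. In H460, partner proteins called higher ran from 0 to 1 and lower from 1 to 4, and turnover genes higher from 1 to 3. Members called for RKO minus A549 ran from 0 to 3. Signs changed for values that were not called in the main fits. In A549 these were MYC (-0.39 to 0.21) and MGA (-0.34 to 0.020), and in RKO minus A549 MXD1 (-0.25 to 0.63). In A549 minus H460 they were MYC (-0.034 to 0.58), MXD3 (-0.027 to 0.56) and MXD4 (-0.15 to 0.42). In normoxia they were MXD4 in RKO minus H460 (-0.19 to 0.061) and MGA in A549 minus H460 (-0.12 to 0.23). The MYC value of 0.58, without A549 normoxia replicate 2, passed the threshold of the interaction calls.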
